A study of Mus musculus with 8 samples.

Results

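The 10 genes described here are transcripts of the circadian clock and of its output in mouse liver: Arntl, Clock, Npas2, Per1, Per2, Cry1, Nr1d1, Dbp, Hlf and Ciart. They were found by matching the RefSeq accession that each array probe carries to these symbols, which gave 18 of the 56605 probes. After a filter on dim probes 15 of the 18 remained, and all 10 genes were among the 26556 genes and unnamed transcripts tested. RNA from whole liver of mice aged 10 to 11 weeks was measured on 8 one-colour (Cy3) Agilent arrays, with n = 2 arrays in each of 4 groups. The groups were males labelled liver-specific Bcl-6 deficient (male KO), females with the same label (female KO), male wild type (male WT) and female wild type (female WT). The KO label names no Cre driver or allele, and the labels state no treatment. The hour of dissection and the light and feeding schedule are not given in the sources used here.

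The mammalian clock is a transcriptional feedback loop that runs in nearly every cell. ARNTL pairs with CLOCK, or with its close relative NPAS2, binds E-boxes and switches on Per, Cry, Nr1d1, Ciart and Dbp, whose products then act back on the loop or carry its rhythm to other genes. In liver the levels of most of these transcripts swing widely over each day, and feeding time and glucocorticoids can set their phase, so a level in a single sample depends on the hour at which it was taken.

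Levels are the log2 of the processed signal minus the 75th percentile of that array, which was 127.3 to 157.6 before the log, so a level of 0 is that percentile. A level is relative to its own probe, so levels of different genes are not compared. Between 33677 and 36459 of the 59305 spots other than controls were well above background on an array, 55 to 139 were marked as outliers and left out, and 0 were saturated. The 8 arrays shared 1 slide and 1 scan. Sex cannot be told apart from the row of the slide, since 1 row held the females and the other the males, while both rows held both genotypes. Beyond the replicate names nothing in the sources used here tells separate animals from repeat arrays, so p-values reflect the spread between these arrays, which may be technical.

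The probe for Bcl6, the gene named in the KO label, read 4.49 and 4.01 in male KO, against 3.97 and 2.91 in male WT, and 1.62 and 4.41 in female KO, against 2.95 and 0.86 in female WT. Livers labelled KO did not read lower (log2 difference over both sexes 0.96 ± 0.75 SE, adjusted p = 0.398 by limma with Benjamini-Hochberg). Where the probe lies relative to the deletion is not known here, so this reading tests none of the labels, and every direction below follows them. Hepatocyte markers (Alb, Apob, Ttr and others, 9 of 10 measured) were well above background on all 8 arrays, with a mean level of 8.29 to 8.53 in KO and 8.34 to 8.52 in WT livers. Over both sexes 1 of them rose and 1, Ttr, fell (-0.53). Mean levels did not overlap between the genotypes for 3 other marker lists. Among all genes tested, KO and WT arrays did not overlap for 25.0%, and 19.8% passed the test over both sexes. Stellate cell markers, whose means overlapped, had 2 that rose and 1 that fell of 6. Markers of endothelial cells (6 of 6 measured, 3 rose over both sexes) read 1.71 to 1.86 in KO, against 1.05 to 1.38 in WT livers. The risers were Vwf (1.89), Lyve1 (0.87) and Stab2 (0.47), while Pecam1 (-0.08), Cdh5 (0.08) and Kdr (0.11) did not pass the test. Markers of B and plasma cells (6 of 6 measured, 4 rose) read -0.73 to -0.53 in KO, against -2.09 to -1.35 in WT livers, with 4 of the 6 well above background on all 8 arrays. Those of cholangiocytes (5 of 5 measured, 1 rose) read -2.91 to -2.27 in KO, against -3.85 to -2.94 in WT livers, with 2 of the 5 well above background on all 8 arrays. The riser was Prom1 (3.59), while the median of the 5 differences was -0.06 with 2 positive and 3 negative (Krt19 -0.06, Krt7 -0.16, Sox9 -0.24). These shifts move with genotype in the same arrays as the clock genes, and their part in the clock results was not tested. In whole liver, fewer cells of a type and less RNA per cell cannot be told apart.

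Set against WT, KO livers had lower Hlf and Ciart in both sexes, and over both sexes together also lower Per1 and Per2 and higher Npas2. Dbp, Nr1d1, Cry1, Clock and Arntl did not pass the test in any comparison. Over both sexes 5 of 10 members passed (1 rose, 4 fell), beside 19.8% of all genes tested. In males 2 of 10 passed, beside 10.7% of all genes, and in females 2 of 10, beside 5.93%. The calls within a sex were Hlf and Ciart both times. Since 1 gene is 10% of the set, these counts are given as descriptions. Npas2 and Ciart were kept by the filter on dim probes through 1 group only, where each read high, so their calls are no support for these counts. At an unadjusted p under 0.05 the counts were 6 over both sexes, 4 in males and 6 in females, beside 36.2%, 27.2% and 24.9% of all genes tested. The threshold was an adjusted p of 0.05 from limma with Benjamini-Hochberg adjustment over all 26556, and differences are KO minus WT on the log2 scale with the SE of the fit. By size, 6 of 10 members differed by at least 1 on the log2 scale over both sexes (60%), beside 6.52% of all genes tested, and the median difference was -0.59 for the members and -0.02 for all genes. The 6 include Arntl and Dbp, which did not pass the test, and Ciart, which was not well above background on any KO array. Members also spread more within groups (median SD 0.565, beside 0.169 over all genes), and more spread alone gives larger differences.

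**Figure D1:**
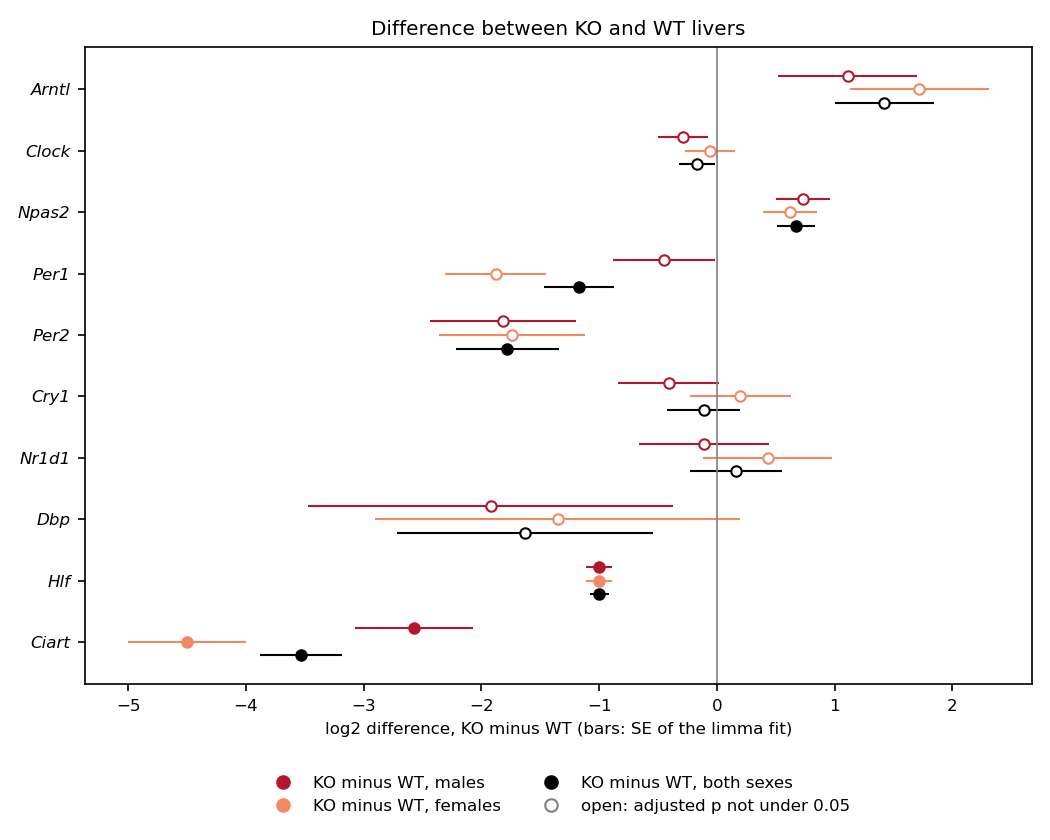
Log2 difference between KO and WT livers (x axis) for the 10 clock genes (rows), in males (red, n = 2 KO and 2 WT arrays), females (orange, n = 2 and 2) and both sexes (black, n = 4 and 4). Points are limma estimates, bars their SE, and filled points have an adjusted p under 0.05. Hlf lay at -1.0 in all 3 comparisons with short bars, while Dbp, at -1.92 in males and -1.35 in females, had the longest bars. The points of Ciart and Npas2 rest on readings not well above background in the lower group.

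The activators come first. Arntl (chromosome 7), which encodes BMAL1, the partner shared by CLOCK and NPAS2, read 0.49 and 1.06 in male KO, against 0.24 and -0.91 in male WT livers. Female KO livers read 0.13 and 1.12, against -0.48 and -1.72 in female WT livers. KO lay above WT within each sex, but over all 8 arrays the groups overlapped, because 1 female KO array (0.13) was below 1 male WT array (0.24). The difference was 1.11 ± 0.59 in males (adjusted p = 0.288), 1.72 ± 0.59 in females (adjusted p = 0.146) and 1.42 ± 0.42 over both sexes (adjusted p = 0.0636), none of which passed the limma test. Without female WT replicate 1 the difference over both sexes was 1.73 and passed (adjusted p = 0.0452). The other 2 Arntl probes gave 1.45 ± 0.47 and 1.21 ± 0.44 over both sexes (adjusted p = 0.0807 and 0.105), so all 3 probes had the same sign and similar size.

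RefSeq promoter windows on GRCm38.p6, from 250 bases before to 50 after an annotated start, were listed for 9 of the 10 members (13 windows). They were searched on both strands for the E-box CACGTG bound by ARNTL and its partners, the E-box variant CACGTT, the D-box TTANGTAA bound by DBP, HLF and TEF, the element bound by NR1D and ROR receptors (RRE), and the STAT-type and Bcl6-type site TTCNNNGAA. No 2 matches in these windows overlapped. The Arntl window chr7:113207261-113207560 (+ strand) is shown because RREs carry the feedback from NR1D1 and ROR receptors to Arntl. The capitals mark the stretch that matched the RRE letters searched for, which begins at position 27 counted from the start. Such a match is held by 0.384% of the 32851 promoters in the table. Near matches to these letters were not counted, so the window may hold further elements of this kind.
Arntl: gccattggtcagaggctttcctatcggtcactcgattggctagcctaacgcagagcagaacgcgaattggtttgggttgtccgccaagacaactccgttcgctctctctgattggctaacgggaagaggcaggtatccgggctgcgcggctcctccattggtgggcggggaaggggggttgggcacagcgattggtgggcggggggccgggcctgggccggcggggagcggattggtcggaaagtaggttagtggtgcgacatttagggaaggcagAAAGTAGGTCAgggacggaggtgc

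Clock (chromosome 5), whose product pairs with ARNTL, did not pass the test in any comparison. It read 2.10 and 2.16 in male KO, against 2.49 and 2.35 in male WT, and 1.67 and 2.28 in female KO, against 2.11 and 1.96 in female WT livers. The genotypes overlapped over the 8 arrays, with a difference over both sexes of -0.17 ± 0.15 (adjusted p = 0.432 by limma), and its other bright probe gave -0.14 ± 0.12.

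Npas2 (chromosome 1), the CLOCK relative that can take its place beside ARNTL, passed the test over both sexes, with higher readings in KO. It read -3.44 and -3.75 in male KO, against -4.46 and -4.18 in male WT, and -3.95 and -3.39 in female KO, against -4.14 and -4.44 in female WT livers. All 4 KO arrays lay above all 4 WT arrays. The probe was dim: it was well above background on 2 male KO arrays, 1 female KO array and 0 of the WT arrays. It was thus kept by the filter on dim probes only through male KO, where it was high. The fold over both sexes is therefore given against a limit, at 1.55-fold higher in KO. That limit takes the higher of each WT value and the lowest signal that counted as above background on the same array. The KO mean includes 1 female KO reading not well above background, so this fold is not a strict lower bound. The measured difference was 0.67 ± 0.16 (adjusted p = 0.0372 by limma), with 0.73 ± 0.23 in males (adjusted p = 0.109) and 0.62 ± 0.23 in females (adjusted p = 0.171). The call rested on most single arrays. It was lost without male KO replicate 1 (difference 0.60, adjusted p = 0.113), male KO replicate 2 (0.75, adjusted p = 0.0717), female KO replicate 2 (0.54, adjusted p = 0.0783), male WT replicate 1 (0.60, adjusted p = 0.0943), male WT replicate 2 (0.74, adjusted p = 0.0667) or female WT replicate 2 (0.60, adjusted p = 0.0905). It was also lost without the filter on dim probes (adjusted p = 0.0939), under quantile normalization (adjusted p = 0.0548) and with the normexp background correction, which gave 0.10.

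**Figure D2:**
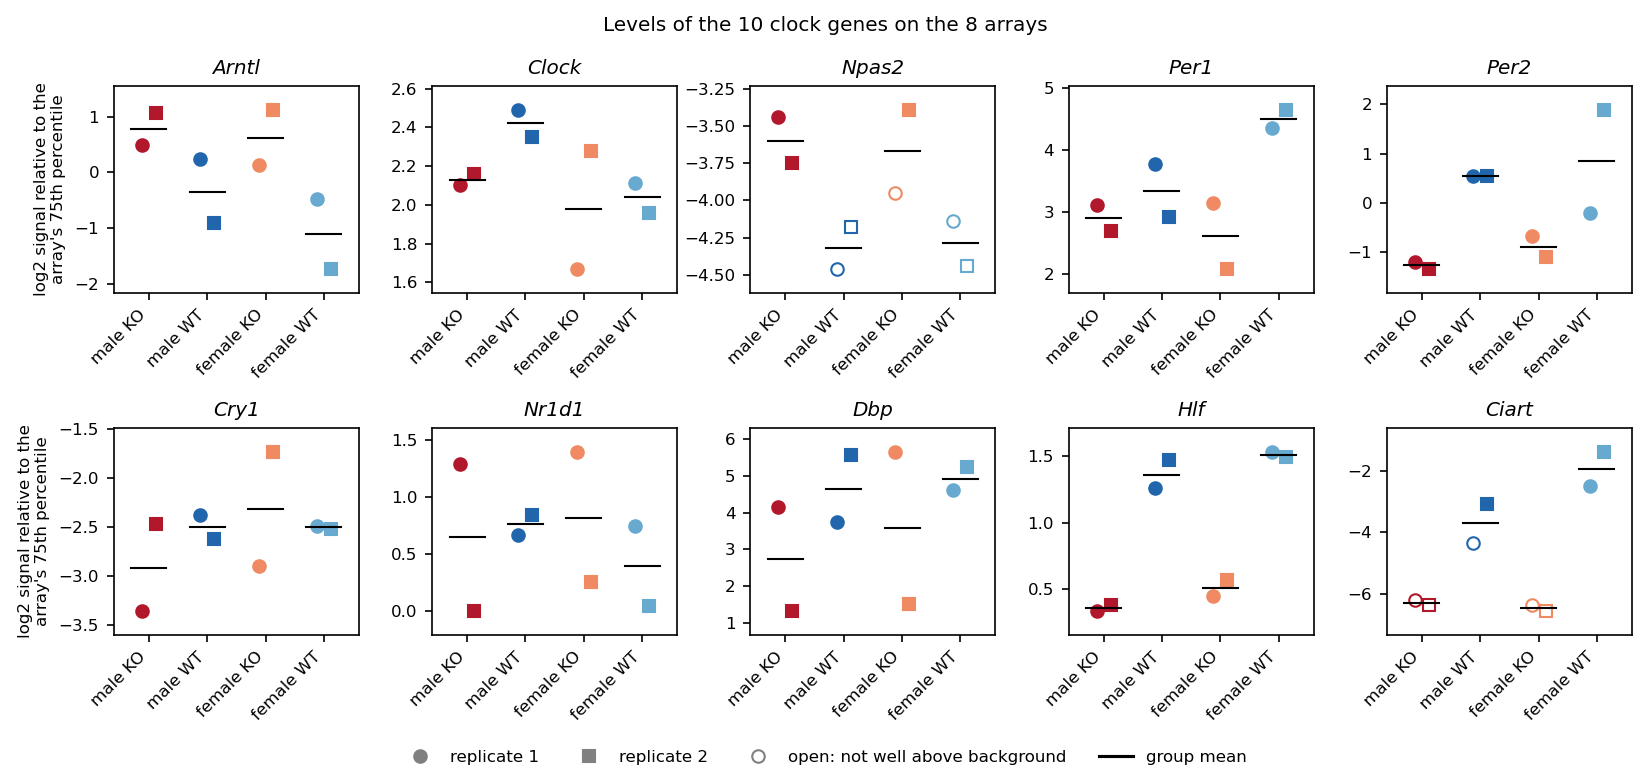
Levels of the 10 clock genes (y axes, log2 signal relative to the 75th percentile of the array, 1 panel per gene with its own scale) in male KO, male WT, female KO and female WT livers. Circles are replicate 1, squares replicate 2, open symbols probes not well above background, and lines group means. The 4 KO arrays did not overlap the 4 WT arrays for Npas2, Per2, Hlf and Ciart, and the 2 arrays of a group lay up to 4.16 apart for Dbp.

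The repressors of the loop were next. PER and CRY proteins form complexes that inhibit ARNTL and CLOCK, and CIART also binds and represses that pair. NR1D1, also called REV-ERB alpha, represses Arntl. Of these 5 genes Per1, Per2 and Ciart fell over both sexes, and Cry1 and Nr1d1 did not pass the test.

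Per1 (chromosome 11) read 3.11 and 2.69 in male KO, against 3.78 and 2.92 in male WT, and 3.15 and 2.09 in female KO, against 4.35 and 4.65 in female WT livers. Female KO and female WT arrays lay apart, while the male groups overlapped. The difference was -1.88 ± 0.43 in females (3.68-fold lower, adjusted p = 0.0594), -0.45 ± 0.43 in males (adjusted p = 0.548) and -1.17 ± 0.30 over both sexes (2.24-fold lower, adjusted p = 0.044 by limma). The difference between the sexes in this effect was 1.43 ± 0.60 and did not pass (interaction, adjusted p = 0.603). The call over both sexes was lost without male KO replicate 1 (difference -1.27, adjusted p = 0.0862), male KO replicate 2 (-1.06, adjusted p = 0.128), female KO replicate 2 (-0.90, adjusted p = 0.0867), male WT replicate 1 (-0.95, adjusted p = 0.0966), female WT replicate 1 (-1.24, adjusted p = 0.072) or female WT replicate 2 (-1.09, adjusted p = 0.105). It was also lost without the filter on dim probes (adjusted p = 0.103).

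Per1 is a textbook E-box target, and its upstream window chr11:69098699-69098998 (+ strand) holds 1 E-box, in capitals, beginning at position -166. E-boxes of these letters occur in 7.15% of the promoters. A window at another annotated Per1 start holds a STAT-type and Bcl6-type site at position -210, and 8.3% of the promoters hold such a site.
Per1: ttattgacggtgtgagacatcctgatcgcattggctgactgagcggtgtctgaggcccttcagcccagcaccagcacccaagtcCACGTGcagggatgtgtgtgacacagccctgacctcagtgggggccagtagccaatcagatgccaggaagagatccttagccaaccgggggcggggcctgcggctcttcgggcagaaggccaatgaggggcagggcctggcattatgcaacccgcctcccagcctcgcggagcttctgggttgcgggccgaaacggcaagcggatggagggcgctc

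Per2 (chromosome 1) fell over both sexes. It read -1.20 and -1.34 in male KO, against 0.55 and 0.55 in male WT, and -0.68 and -1.11 in female KO, against -0.20 and 1.89 in female WT livers. All 4 KO arrays lay below all 4 WT arrays, and the female WT arrays were 2.09 apart. The difference was -1.82 ± 0.62 in males (adjusted p = 0.126), -1.74 ± 0.62 in females (adjusted p = 0.156) and -1.78 ± 0.44 over both sexes (3.43-fold lower, adjusted p = 0.0384 by limma). The spread that all groups share in the fit was set largely by female WT. Without female WT replicate 1 the difference in females was -2.78 and passed (adjusted p = 0.00668), and without either female WT array the male difference passed (adjusted p = 0.00553). Over both sexes the call was lost without male KO replicate 1 (-1.81, adjusted p = 0.0971), male KO replicate 2 (-1.74, adjusted p = 0.109), female KO replicate 1 (-1.88, adjusted p = 0.0885), female KO replicate 2 (-1.67, adjusted p = 0.105), male WT replicate 1 (-1.78, adjusted p = 0.0881) or male WT replicate 2 (-1.78, adjusted p = 0.0987). It was also lost without the filter on dim probes (adjusted p = 0.0909). The other Per2 probe, dimmer and still well above background on all 8 arrays, gave a smaller difference of -0.44 ± 0.18 (adjusted p = 0.142) on arrays that did not overlap either, so the 2 probes disagree on the size.

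Cry1 (chromosome 10) read -3.35 and -2.47 in male KO, against -2.37 and -2.62 in male WT, and -2.89 and -1.73 in female KO, against -2.49 and -2.52 in female WT livers. The WT arrays were within 0.25 of each other in each sex, and the KO arrays were 0.87 apart in males and 1.16 apart in females. In females they lay on either side of WT, and in males the lower KO array was below both WT arrays and the other lay between them. The difference over both sexes was -0.11 ± 0.31 (adjusted p = 0.829 by limma). Its window holds an E-box at position -60 and an E-box variant, a form found in 4.68% of promoters, at position -79.

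Nr1d1 (chromosome 11) read 1.29 and 0.00 in male KO, against 0.67 and 0.84 in male WT, and 1.40 and 0.25 in female KO, against 0.75 and 0.04 in female WT livers. The genotypes overlapped in both sexes, and the difference over both sexes was 0.16 ± 0.39 (adjusted p = 0.798 by limma). The lowest of the 8 arrays was male KO replicate 2 and the highest was female KO replicate 1. Its window holds an E-box variant at position -28.

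Ciart (chromosome 3), also known as Chrono, fell in both sexes. It read -6.19 and -6.36 in male KO, against -4.35 and -3.07 in male WT, and -6.36 and -6.54 in female KO, against -2.5 and -1.39 in female WT livers. The probe was well above background on 0 of the 4 KO arrays, on 1 male WT array and on both female WT arrays, so in KO livers there is only an upper bound. It was kept by the filter on dim probes only through female WT, where it was high. The fold was at least 5.49-fold lower in female KO livers. With KO taken at its upper bound, it was 1.42-fold lower in male KO and 2.79-fold lower over both sexes. The latter values include a male WT reading not well above background, so they are not strict bounds. The measured differences were -2.57 ± 0.50 in males (adjusted p = 0.0292), -4.50 ± 0.50 in females (adjusted p = 0.00815) and -3.53 ± 0.35 over both sexes (adjusted p = 0.00232 by limma). In males the call was lost without male KO replicate 1 (-2.65, adjusted p = 0.114), male KO replicate 2 (-2.48, adjusted p = 0.136), male WT replicate 2 (-1.92, adjusted p = 0.0951) or either female KO array (adjusted p = 0.0588). In females it was lost without female KO replicate 1 (-4.59, adjusted p = 0.0555) or replicate 2 (-4.41, adjusted p = 0.0527), and over both sexes it held without any single array (highest adjusted p = 0.0137). The male call was also lost without the filter on dim probes (adjusted p = 0.0767) and when only the male arrays were fitted (adjusted p = 0.0585). The normexp correction gave -0.23 in males (adjusted p = 0.413), -0.72 in females and -0.48 over both sexes. A Ciart probe that did not pass the filter was well above background on 2 of 8 arrays. It gave 0.52 ± 0.36 in males, -0.42 ± 0.36 in females and 0.05 ± 0.25 over both sexes, so the fall rests on 1 probe.

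The Ciart window chr3:95882179-95882478 (- strand, printed 5′ to 3′ along the gene) is shown because Ciart is the member that holds the most E-boxes of the 13 windows. It has 3, in capitals, beginning at positions -116, -58 and -44.
Ciart: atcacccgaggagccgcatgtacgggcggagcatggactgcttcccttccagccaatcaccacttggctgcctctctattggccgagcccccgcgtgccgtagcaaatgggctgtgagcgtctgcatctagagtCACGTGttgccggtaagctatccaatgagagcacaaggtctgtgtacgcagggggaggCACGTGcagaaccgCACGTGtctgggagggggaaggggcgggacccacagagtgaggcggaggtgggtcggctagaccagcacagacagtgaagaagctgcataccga

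The output genes Dbp and Hlf encode related transcription factors of the PAR bZIP family, which bind D-boxes and pass the rhythm on to genes of drug and lipid metabolism. They gave opposite pictures of the spread between arrays. Hlf fell by 1.0 on the log2 scale in each sex with little spread, whereas Dbp varied more between arrays of 1 group than between the genotypes.

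Hlf (chromosome 11) read 0.34 and 0.38 in male KO, against 1.26 and 1.47 in male WT, and 0.45 and 0.57 in female KO, against 1.53 and 1.49 in female WT livers. All 4 KO arrays lay below all 4 WT arrays, with a gap wider than the range of either set. The difference was -1.0 ± 0.11 in males (2.01-fold lower, adjusted p = 0.00535), -1.0 ± 0.11 in females (2.0-fold lower, adjusted p = 0.00886) and -1.0 ± 0.08 over both sexes (2.0-fold lower, adjusted p = 0.00108 by limma). Over both sexes it passed in all 18 alternatives tried, with differences of -1.05 to -0.84 and a highest adjusted p of 0.0438. In females the call was lost without female KO replicate 1 (-0.93, adjusted p = 0.0625) and when only the female arrays were fitted (adjusted p = 0.0613). The order of the group means was female WT (1.51), male WT (1.36), female KO (0.51) and male KO (0.36). The neighbours within a genotype did not differ by the test (male minus female -0.14 ± 0.11 in WT, adjusted p = 0.547, and -0.15 ± 0.11 in KO, adjusted p = 0.914).

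Dbp (chromosome 7) read 4.15 and 1.33 in male KO, against 3.75 and 5.57 in male WT, and 5.66 and 1.5 in female KO, against 4.61 and 5.24 in female WT livers. Replicate 2 was the low array in both KO groups, and female KO replicate 1 was the highest of the 8 arrays. The difference was -1.92 ± 1.55 in males (adjusted p = 0.478), -1.35 ± 1.55 in females (adjusted p = 0.629) and -1.63 ± 1.09 over both sexes (adjusted p = 0.327 by limma). With both KO arrays numbered 2 left out, an alternative added after seeing the data, it was 0.12 over both sexes, and with both KO arrays numbered 1 left out it was -3.38. The other Dbp probe showed the same arrays low and gave -1.42 ± 1.05, so the spread is not that of 1 probe.

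The windows of the output genes are shown side by side since both encode D-box binding factors and their transcripts differ in spread. The Dbp window chr7:45704997-45705296 (+ strand) holds 1 STAT-type and Bcl6-type site, in capitals, at position -99. The Hlf window chr11:90390868-90391167 (- strand, printed along the gene) holds none of the 5 motifs. No member window held a D-box, which 2.32% of the promoters hold, and these matches are letters in a window, not sites shown to be bound.
Dbp: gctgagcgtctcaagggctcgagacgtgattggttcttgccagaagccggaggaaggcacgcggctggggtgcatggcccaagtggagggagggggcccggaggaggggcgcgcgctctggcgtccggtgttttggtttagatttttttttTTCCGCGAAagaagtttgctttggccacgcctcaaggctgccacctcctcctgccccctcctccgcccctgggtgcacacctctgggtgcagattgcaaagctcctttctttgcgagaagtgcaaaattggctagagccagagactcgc
Hlf: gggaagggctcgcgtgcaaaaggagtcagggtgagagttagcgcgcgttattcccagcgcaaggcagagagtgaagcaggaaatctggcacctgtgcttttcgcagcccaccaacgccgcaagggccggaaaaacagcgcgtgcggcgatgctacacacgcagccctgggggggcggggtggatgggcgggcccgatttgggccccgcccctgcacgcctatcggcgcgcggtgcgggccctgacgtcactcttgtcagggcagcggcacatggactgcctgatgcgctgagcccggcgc

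For 4 of the 10 members (Npas2, Per2, Hlf and Ciart) the 4 KO arrays did not overlap the 4 WT arrays, beside 25.0% of all genes tested. Npas2 and Ciart were kept by the filter only through the group where each read high, so they are no support for this count. Neither was well above background on any array of its lower genotype. Within groups, 9 of the 10 members varied more between the 2 arrays than the median gene, Hlf being the exception. The SD within groups, pooled over the 4 groups, had a median of 0.565 over the members and 0.169 over all genes. It was 1.90 for Dbp (the 99.7th percentile of all genes), 0.76 for Per2 (97.4th), 0.72 for Arntl (96.9th), 0.67 for Nr1d1 (96.2nd) and 0.61 for Ciart (95.1th). For Hlf it was 0.09, the 19.5th percentile.

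Signs of the spread were also compared between the sexes. The difference of replicate 1 minus replicate 2 had the same sign in male KO and female KO for 9 of the 10 members, all but Npas2, beside 53.2% of all genes tested. In the WT groups this held for 6 of 10 members, beside 52.3% of all genes. The members belong to the clock loop or its output and may move together. They are thus not independent of each other, and these counts are descriptions. The 9 members include small differences, such as -0.03 in male KO and -0.13 in female KO for Hlf and -0.05 in male KO for Clock. They also include Ciart, which was not well above background on any KO array. For Per2 the probe counted gave 0.14 in male KO and 0.42 in female KO, while its other probe ran the other way, at -0.31 and -0.12. Replicate 1 minus replicate 2 was 2.82 in male KO and 4.16 in female KO for Dbp, and 1.30 and 1.15 for Nr1d1. For Cry1 it was -0.87 in male KO and -1.16 in female KO, and for Arntl -0.57 and -0.99. The KO arrays numbered 2 thus had less Dbp, Nr1d1 and Per1 and more Arntl and Cry1 than those numbered 1, in each sex. In WT livers Arntl ran the other way, at 1.15 in males and 1.24 in females, as did Dbp, at -1.82 and -0.63, and Ciart, at -1.29 and -1.11. Of the 9 measured genes in the list of other clock transcription factors and repressors, 6 had the same sign in both KO groups and 6 in both WT groups. The pair named next was chosen after its values were seen. Tef, the third PAR bZIP factor, read 4.93 and 4.08 in male KO and 5.29 and 4.16 in female KO livers. Nfil3, a D-box repressor, read 3.22 and 3.83 in male KO and 2.79 and 4.03 in female KO livers. The labels do not say what a replicate number marks, and the part of sampling time in these differences was not tested.

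**Figure D3:**
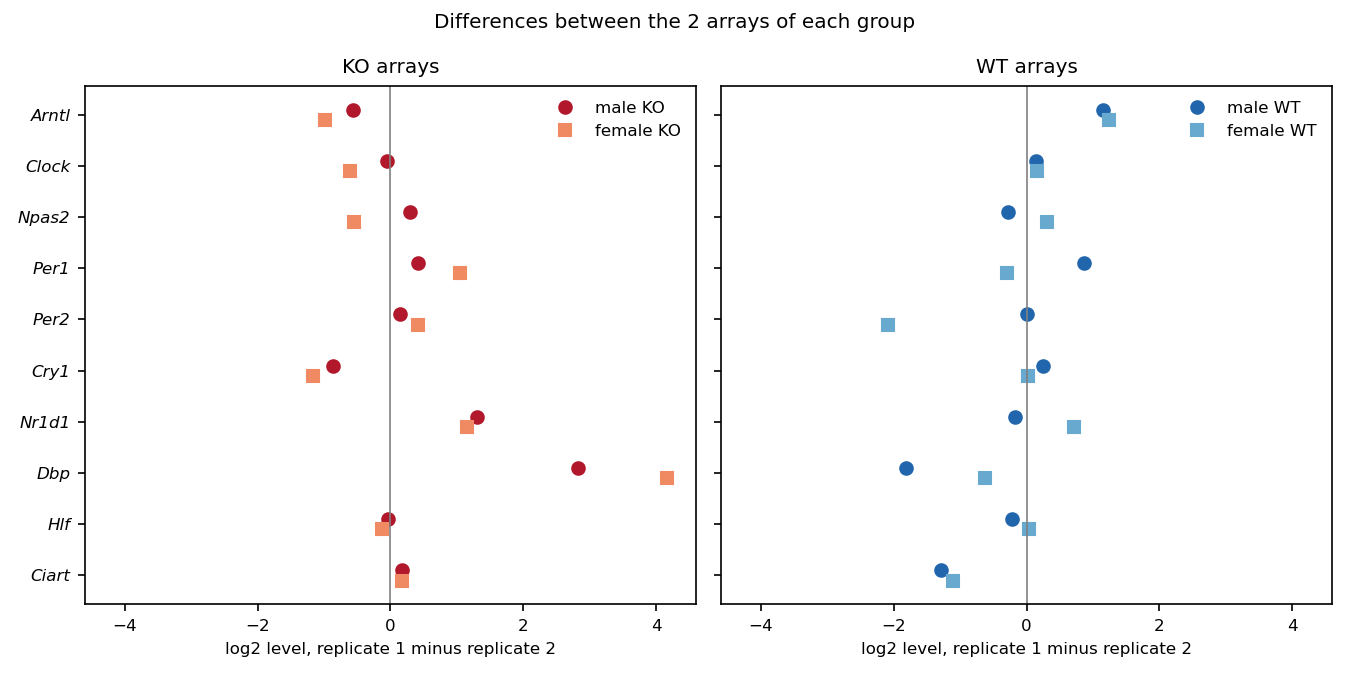
Log2 level on replicate 1 minus replicate 2 (x axis) for each of the 10 clock genes (rows), in male KO and female KO (left panel) and male WT and female WT (right panel). In the KO panel the circles and squares lie on the same side of 0 for 9 of the 10 genes, with Dbp at 2.82 in male KO and 4.16 in female KO farthest to the right.

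Comparisons between the sexes found no member past the threshold. In KO livers 0 of 10 members passed in males minus females, beside 0.0828% of all genes tested, with 0 at an unadjusted p under 0.05. In WT livers 0 of 10 passed, beside 0.964% of all genes. Per1 (-1.15 ± 0.43, adjusted p = 0.244) and Ciart (-1.76 ± 0.50, adjusted p = 0.166 by limma) had an unadjusted p under 0.05, 0.0354 and 0.0122, and both male WT arrays were below both female WT arrays. The difference of the genotype effect between males and females passed for 0 of 10 members, beside 0.192% of all genes. Ciart was the only member with an unadjusted p under 0.05 there, 0.0336, with an interaction of 1.94 ± 0.71 (adjusted p = 0.543). Its KO readings and 1 male WT reading were not well above background, so the size of that interaction is not measured. The median SE of an interaction over all genes was 0.229, and that of Dbp was 2.19, so differences between the sexes of the size seen were not detectable for Dbp with 2 arrays a group.

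The profiles most like those of the 3 members with the smallest adjusted p were looked up among 13969 genes with a symbol that were well above background on all 8 arrays. Likeness is the mean absolute difference between log2 levels, each gene centred on its own mean over the 8 arrays. Nearest to Hlf were Cmtm4 (0.066), Fam149a (0.074) and L3hypdh (0.091). Cmtm4 read -0.83 and -0.69 in male KO, against 0.21 and 0.25 in male WT, and -0.76 and -0.58 in female KO, against 0.26 and 0.23 in female WT livers. This is the same step of about 1 between genotypes, with no overlap. Nearest to Ciart were Mfsd2a (0.491), Adora1 (0.532) and Plin4 (0.534). Mfsd2a, a lipid transporter, read 1.5 and 1.14 in male KO, against 3.42 and 2.91 in male WT, and 1.94 and 1.26 in female KO, against 5.55 and 5.75 in female WT livers. Like Ciart it was low on all KO arrays and highest in female WT. The Ciart probe was not well above background on 5 of the 8 arrays, so these distances and their order rest in part on readings without a measured level. This holds for Npas2 too, also on 5 arrays. Nearest to Npas2 were Kcnj10 (0.061), Gm11564 (0.089) and Gm11559 (0.097).

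Other clock genes were described from 2 lists. Of 11 other clock transcription factors and repressors 9 were measured, and 0 passed the limma test over both sexes, with 3 at an unadjusted p under 0.05 (33.3%, beside 36.2% of all genes tested) and a median difference of -0.02. Of 7 clock kinases and ubiquitin ligases 0 passed over both sexes, with 2 at an unadjusted p under 0.05 (28.6%) and a median of -0.10. In males and in females taken alone, 0 genes of these lists passed, with 0 and 1 at an unadjusted p under 0.05 in males and 1 and 1 in females. These 3 genes were named after their values were seen: Tef and Nfil3 had differences of -0.92 ± 0.31 (adjusted p = 0.085) and 1.19 ± 0.42 (adjusted p = 0.0973), and Bhlhe40, an E-box repressor, -1.03 ± 0.28 (adjusted p = 0.0516), all short of the threshold.

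**Figure D4:**
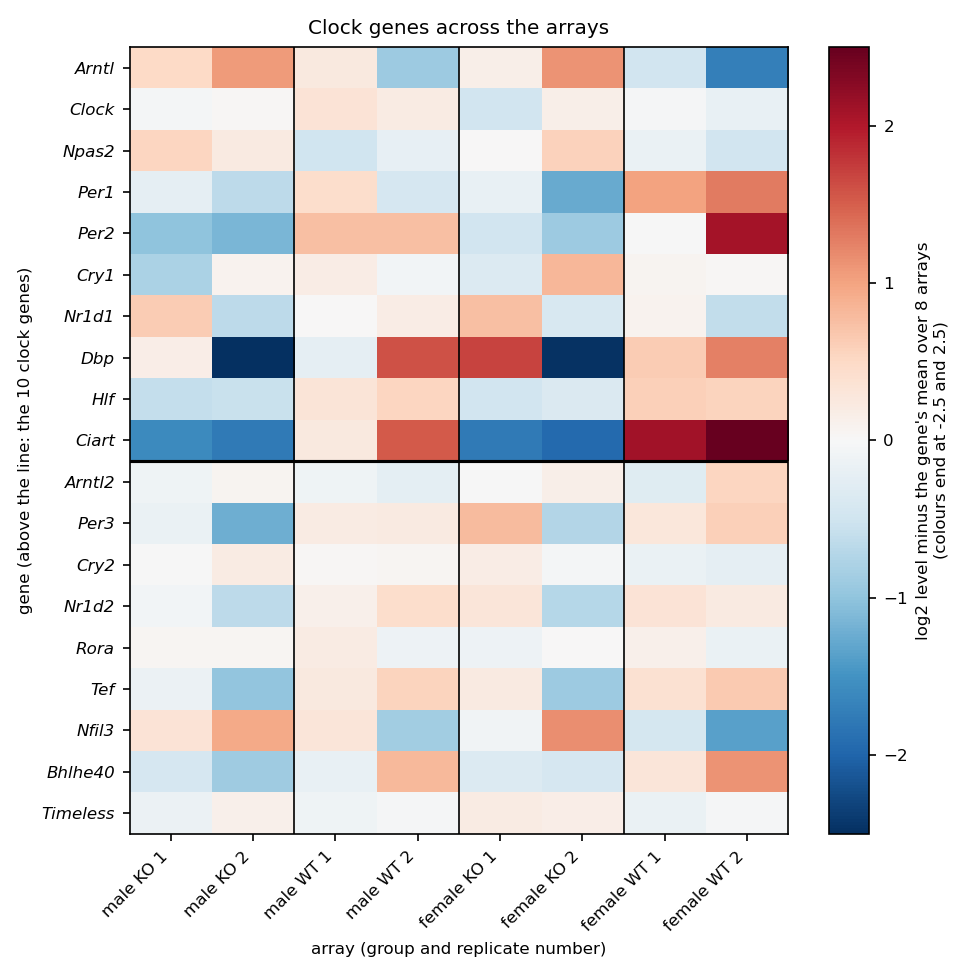
Level of each gene on each of the 8 arrays minus its mean over the arrays (colour, log2, ends at -2.5 and 2.5), for the 10 clock genes (above the line) and the 9 measured genes of the list of other clock transcription factors and repressors. Columns run male KO, male WT, female KO and female WT. Hlf and Ciart are blue in all 4 KO columns, and Dbp is deep blue only in the columns of KO replicate 2.

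Of 14 clock output genes of liver 2 rose and 2 fell over both sexes (28.6%, beside 19.8% of all genes tested), with a median of -0.20. Upp2, an enzyme of uridine breakdown, rose in both sexes (1.46 ± 0.24 in males, adjusted p = 0.0172, and 1.75 ± 0.24 in females, adjusted p = 0.0152, by limma). Noct, a rhythmic gene also called nocturnin, rose over both sexes (1.28 ± 0.22, adjusted p = 0.0141 by limma). It was 2.02 ± 0.32 in males (adjusted p = 0.0156) and 0.53 ± 0.32 in females (adjusted p = 0.35). The difference between the sexes in this effect did not pass (interaction 1.49 ± 0.45, adjusted p = 0.44). Alas1, the rate-limiting enzyme of haem synthesis, fell over both sexes (-1.92 ± 0.40, adjusted p = 0.023), as did Rgs16, a regulator of G protein signalling (-2.82 ± 0.63, adjusted p = 0.0293). Both had KO arrays wholly below WT arrays, at 5.84 to 5.98 against 7.13 to 8.76 for Alas1.

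Since feeding and glucocorticoids set the phase of the liver clock, 2 further lists were described. Of 10 genes that respond to feeding or fasting 0 rose and 1 fell over both sexes (10%, beside 19.8% of all genes tested), with a median difference of -0.07. That gene was Angptl4, an inhibitor of lipoprotein lipase that is high in fasting (-1.14 ± 0.20, adjusted p = 0.0135 by limma). Of 7 glucocorticoid-responsive genes 4 rose and 2 fell over both sexes (85.7%, beside 19.8% of all genes tested). The lists were chosen with earlier results of these data known, so these shares are descriptions. The metallothioneins Mt1 (1.78 ± 0.26, adjusted p = 0.00803) and Mt2 (2.27 ± 0.51, adjusted p = 0.0288) rose, as did the kinase gene Sgk1 (1.35 ± 0.21, adjusted p = 0.00896) and Tat, a tyrosine-degrading enzyme named after its value was seen, outside the rule for named genes (0.73 ± 0.16, adjusted p = 0.0257). In males alone Mt1 (2.62 ± 0.37), Mt2 (3.23 ± 0.71) and Sgk1 (1.42 ± 0.29) passed. In females alone none of the 4 risers passed (Mt1 0.93 ± 0.37, Mt2 1.30 ± 0.71, Sgk1 1.28 ± 0.29). The interaction of genotype and sex passed for 0 of the 7. Zbtb16, a zinc-finger repressor (-2.32 ± 0.23, adjusted p = 0.00238), and Tsc22d3, also called GILZ (-1.35 ± 0.22, adjusted p = 0.0114), fell. The glucocorticoid list thus moved in both directions with genotype. The part of feeding and glucocorticoids in the levels of the clock genes was not tested.

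**Figure D5:**
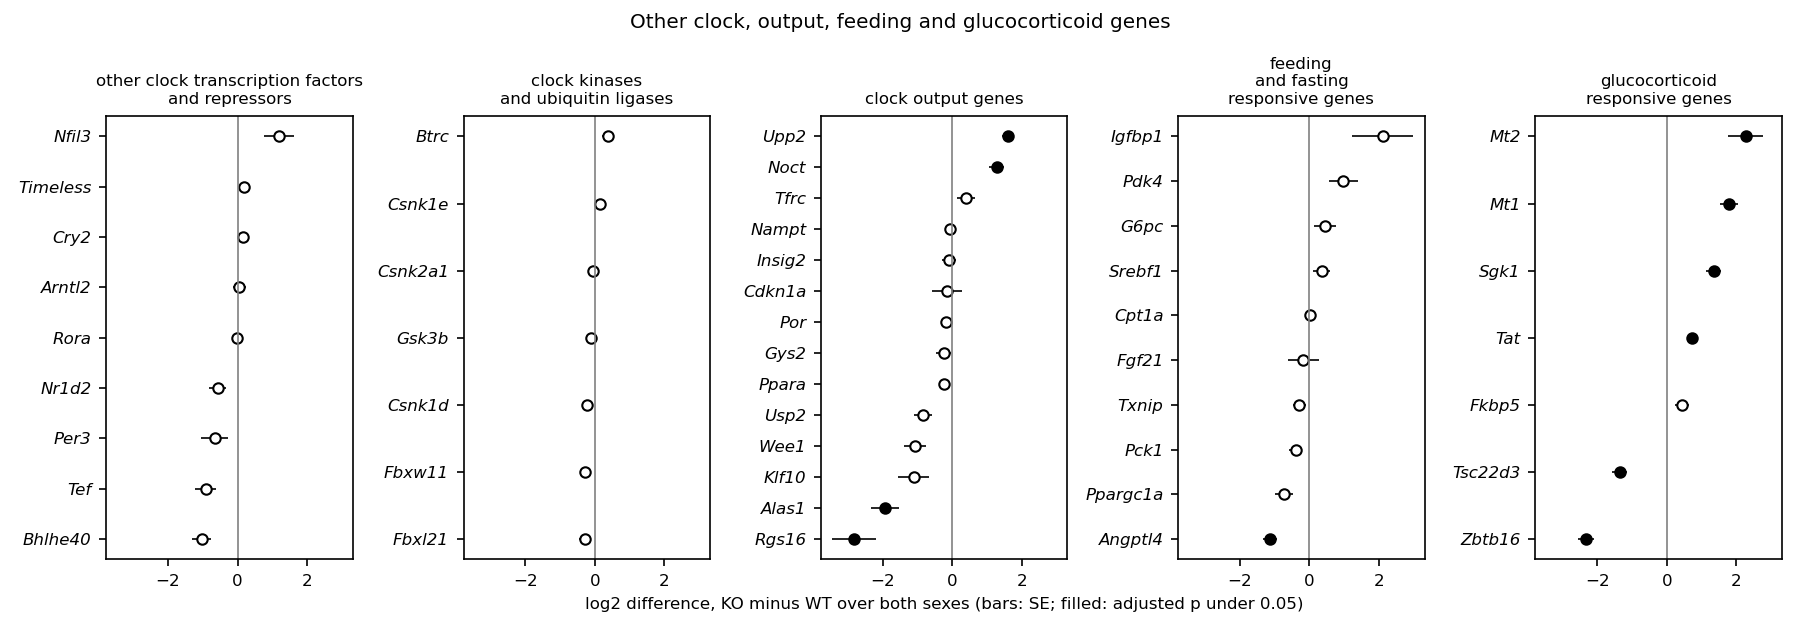
Log2 difference between KO and WT livers over both sexes (x axes, n = 4 KO and 4 WT arrays, bars are the SE of the limma fit) for the measured genes of the 5 lists, 1 panel per list, sorted by difference. Filled points have an adjusted p under 0.05: 0 in the first 2 panels, 4 of 14 clock output genes, 1 of 10 feeding genes and 6 of 7 glucocorticoid genes.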

How the data were processed

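Transcripts of whole mouse liver were measured on 8 one-colour Agilent arrays. Per the file headers, the authors deposited intensity values that Agilent Feature Extraction, version 11.5.1.1, had background-subtracted on each array. The version in the submitters' processing notes is 9.1.3.1. The deposited value table holds log2 values equal to the log2 of those signals minus 1 constant per array. Per the labels' protocols, RNA was extracted with Trizol and checked on a Bioanalyzer.

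Control and outlier-flagged spots were left out and spots of a probe averaged. Each array's 75th percentile over the 56605 probes was subtracted from the log2 signals. A probe was kept (33586 in all) where the 2 arrays of some group both called it well above background. The brightest kept probe stood for a gene. The 26556 genes and unnamed transcripts left were fitted in limma 3.58.1 (R 4.3.3; lmFit, eBayes) with 4 group means over all 8 arrays, 4 residual and 2.07 prior degrees of freedom. Benjamini-Hochberg adjusted p-values were read at a threshold of 0.05. The median SE was 0.162 within a sex and 0.115 over both. The number of arrays limits the precision. A fold against a group with no array above background is a bound, strict only where all arrays of the other group were well above background. Names, chromosomes and promoters came from RefSeq tables of GRCm38.p6, with 32994 of the 56605 probes matched to a symbol. Python 3.11.15, pandas 2.3.3, numpy 2.4.6 and matplotlib 3.10.9 were used.

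The genes and lists were chosen with earlier results of these data known. Some genes of the lists are not reported here, and the counts and medians of the lists leave them out. Named genes were all members, up to 4 genes per list with the smallest adjusted p past the threshold in a comparison, the 3 nearest profiles of the 3 members with the smallest adjusted p, and Bcl6. Each comparison had its own 4. Tef, Nfil3, Bhlhe40, Tat, Prom1, Krt19, Krt7, Sox9 and the 6 endothelial markers were named outside this rule, after their values were seen. The alternatives were the normexp correction (offset 50), quantile normalization, no filter on dim probes, averaged probes per gene, the deposited value table, only the groups compared, a replicate block and each array left out. Leaving out pairs of like-numbered arrays was added after seeing the data.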

Additional observations from a re-analysis of the deposited data

How the results depend on the processing

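Each group held 2 arrays, so leaving 1 out assumes that the lone array varies like the other groups. Hlf over both sexes passed the threshold under all 18 alternatives, and Ciart over both sexes under 16 of 18, lost when both KO arrays numbered 1 or both numbered 2 were left out (adjusted p = 0.0536 and 0.0588). The calls over both sexes of Npas2, Per1 and Per2 held under 4, 7 and 8 of 18. Signals near background limit Ciart and Npas2, which the normexp correction moved most.

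The members past the threshold numbered 2 in males, and 1 with the normexp correction, 1 without the filter on dim probes, 0 without the KO arrays numbered 1, 0 without those numbered 2 and 1 to 3 over the fits that left out 1 array. In females they numbered 2, and 1 with only the groups compared, 0 without the KO arrays numbered 1, 0 without those numbered 2 and 0 to 3 over the fits that left out 1 array. Over both sexes they numbered 5, and 2 without the filter, 1 without the KO arrays numbered 1, 1 without those numbered 2, 3 without the WT arrays numbered 2 and 2 to 5 over the fits that left out 1 array. A replicate block in the fit gave 3 over both sexes, with Npas2 (adjusted p = 0.0591) and Per2 (adjusted p = 0.0537) lost. Deviations of same-numbered arrays from their group means correlated at 0 to 0.1 over all genes between groups. A value over all genes cannot show a pairing that affects few of them, so whether the numbers pair the samples is not known. In the comparisons between sexes and the interaction the count stayed at 0 under every alternative run.

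Signs turned only for differences that had not passed, and the cause was not tested. For KO minus WT in males, Cry1 was 0.02 without the KO arrays numbered 1 and Nr1d1 0.54 without those numbered 2. In females, without the KO arrays numbered 1, Clock was 0.25 and Nr1d1 -0.15. Without those numbered 2, Cry1 was -0.38 and Dbp 0.73, and without the WT arrays numbered 1 Clock was 0.01. Over both sexes, Cry1 was 0.05 with normexp and 0.40 without the KO arrays numbered 1, Nr1d1 was -0.45 without those arrays, and Dbp was 0.12 without the KO arrays numbered 2. For male minus female in WT, Npas2 was 0.03 with normexp and 0.00 with quantile normalization, and Cry1 was -0.01 with normexp. For the interaction, normexp gave 0.13 for Per2 and 0.08 for Hlf, and quantile normalization 0.01 for Hlf.

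Over the fits that left out 1 array, KO minus WT in males ran from -0.85 to 0.02 for Cry1 and -0.76 to 0.54 for Nr1d1. In females it ran from -0.37 to 0.25 for Clock, -0.38 to 0.78 for Cry1, -0.15 to 1.01 for Nr1d1 and -3.43 to 0.73 for Dbp. Over both sexes it ran from -0.40 to 0.18 for Cry1 and -0.17 to 0.48 for Nr1d1. Male minus female in KO ran from -0.35 to 0.64 for Arntl, -0.15 to 0.46 for Clock, -0.20 to 0.35 for Npas2, -0.24 to 0.81 for Per1, -0.83 to 0.47 for Nr1d1 and -2.91 to 1.25 for Dbp. In WT it ran from -0.18 to 0.12 for Npas2, -1.34 to 0.76 for Per2, -0.12 to 0.13 for Cry1 and -1.17 to 0.64 for Dbp. The interaction ran from -1.24 to 0.01 for Arntl, -0.53 to 0.08 for Clock, -0.17 to 0.38 for Npas2, -1.13 to 0.96 for Per2, -1.19 to 0.11 for Nr1d1, -2.65 to 1.51 for Dbp and -0.12 to 0.10 for Hlf.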
